A study of Mus musculus with 85 samples.

Results

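The 9 genes described here encode C-type lectin receptors that are used in the field as labels or sensors of liver macrophages and endothelium: Clec4f, Cd207, Clec1b, Cd209f, Clec4g, Clec4e, Clec4d, Clec4n and Clec7a. They were taken by gene symbol, all 9 were found among the 23608 genes of the deposited tables, and their expression was followed over every group of the series. RNA-seq had been carried out on 85 libraries in 30 groups of cells from male mice, 69 from 3 inbred strains (C57BL/6J, BALB/cJ and A/J) and 16 from CB6F1/J hybrids, which come from a BALB/cJ mother and a C57BL/6J father. Kupffer cells, the macrophages that reside in liver sinusoids, were sorted after an LPS injection (0.1 mg/kg into the peritoneum, 2 h; BALB/cJ 2, C57BL/6J 2 and CB6F1/J 5 libraries), after 30 weeks on the AMLN diet, which is rich in fat, fructose and cholesterol (A/J 4, BALB/cJ 3, C57BL/6J 4), from NSG hosts that had received donor bone marrow (BALB/cJ 3, C57BL/6J 3, CB6F1/J 3), and from untreated mice (A/J 2, BALB/cJ 2, C57BL/6J 2, CB6F1/J 4). The untreated mice were not injected, and the same untreated libraries served the LPS, diet and NSG comparisons of a strain. Per the labels, the LPS mice and their uninjected controls had gone without food overnight; whether the shared untreated libraries are all from such mice was not stated in the sources used. The diet and NSG mice were killed months into the experiment and so were older than untreated young adults, no label places an untreated library on the defined control diet that the study also used, and C57BL/6 mice for the diet were bred in the laboratory rather than bought. Age, fasting, chow and source can therefore not be told apart from diet or engraftment in these comparisons. If untreated libraries came from fed mice, fasting cannot be told apart from LPS either. NSG mice lack lymphocytes of their own; they were conditioned with busulfan, and donor Kupffer cells were told apart from host cells by their MHC haplotype. Liver sinusoidal endothelial cells (LSECs, 4 libraries per strain), stellate cells (A/J 4, BALB/cJ 4, C57BL/6J 3) and hepatocytes (A/J 2, BALB/cJ 2, C57BL/6J 3) came from untreated mice. Bone marrow-derived macrophages (BMDMs), which are grown from marrow in culture, were treated for 2 h with 100 ng/ml KLA, a purified endotoxin lipid, or with PBS (2 libraries per strain and treatment, CB6F1/J included).

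C-type lectins fold around a carbohydrate recognition domain that in many members binds sugars with the help of calcium. On myeloid cells, one set of these receptors signals: Dectin-1 (Clec7a) carries its own tyrosine motif, whereas Dectin-2 (Clec4n), Mincle (Clec4e) and MCL (Clec4d) work with the Fc receptor gamma chain, and both routes run through the kinase Syk and the adaptor Card9 to cytokine genes. Another set serves mainly in binding and uptake, and macrophages and endothelial cells along the liver sinusoids use such receptors to take glycoproteins and particles out of the blood.

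Total counts were between 5254797 and 42779190 per inbred library, and 13 CB6F1/J libraries (all but those from NSG hosts) had between 50252446 and 125467264 reads matching the C57BL/6J genome perfectly. Levels are given in TPM, which scale reads to gene length and to the library, so that genes can be set against each other; for CB6F1/J they are the mean of the values from mapping to each parental genome. Fold changes are log2 values from edgeR fitted on the counts, with their standard error (SE). A gene was called where the Benjamini-Hochberg adjusted p of the quasi-likelihood test over all tested genes was under 0.05 and the change exceeded 2-fold. The sorted populations carried their markers: 10 Kupffer cell genes such as Vsig4 and Timd4 summed to between 12944 and 15304 TPM in untreated inbred Kupffer cells, and 8 LSEC genes such as Stab2 and Kdr to between 7218 and 9048 TPM in LSECs. The stellate cell libraries held both, with 712 to 6594 TPM of the Kupffer cell genes and 1371 to 3721 TPM of the LSEC genes. The study itself reported minor contamination of these libraries with LSECs and Kupffer cells.

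Of the 9 genes, 7 lie on chromosome 6 and 2 on chromosome 8 (GRCm38), several as close neighbours. Clec4f (chr6:83644542-83656116) and Cd207 (chr6:83671207-83677857) are both on the minus strand, 15.1 kb apart, with 0 protein-coding genes between them. Clec4n (chr6:123229843-123247024, plus), Clec4d (chr6:123262107-123275268, plus) and Clec4e (chr6:123281789-123289871, minus) follow each other at 15.1 and 6.52 kb. Clec1b (chr6:129397297-129405413, plus) and Clec7a (chr6:129461591-129472785, minus) are 56.2 kb apart. Clec4g (chr8:3707066-3720695) and Cd209f (chr8:4102784-4105838), both on the minus strand, are 382 kb apart.

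Windows of 250 bases upstream of the start are shown for Clec4f and Cd207, neighbours high in Kupffer cells and far lower in BMDMs. They are also shown for Clec4e and Clec4d, the neighbours with the steepest endotoxin response. The sequences are RefSeq's in GRCm38.p6 and run 5′ to 3′ towards the gene, at chr6:83656117-83656366 (minus strand) for Clec4f, chr6:83677858-83678107 (minus) for Cd207, chr6:123289872-123290121 (minus) for Clec4e and chr6:123261857-123262106 (plus) for Clec4d. Capitals mark a match, on either strand, to one of 5 motifs.
Clec4f: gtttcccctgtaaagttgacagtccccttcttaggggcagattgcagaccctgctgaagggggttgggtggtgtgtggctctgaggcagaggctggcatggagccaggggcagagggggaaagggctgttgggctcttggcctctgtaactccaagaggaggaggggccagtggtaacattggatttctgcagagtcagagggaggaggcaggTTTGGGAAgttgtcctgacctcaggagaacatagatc
Cd207: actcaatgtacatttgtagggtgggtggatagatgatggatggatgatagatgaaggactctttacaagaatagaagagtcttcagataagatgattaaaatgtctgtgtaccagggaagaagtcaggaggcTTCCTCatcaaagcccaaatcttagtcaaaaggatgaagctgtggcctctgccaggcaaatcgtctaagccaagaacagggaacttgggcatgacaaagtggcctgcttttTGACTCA
Clec4e: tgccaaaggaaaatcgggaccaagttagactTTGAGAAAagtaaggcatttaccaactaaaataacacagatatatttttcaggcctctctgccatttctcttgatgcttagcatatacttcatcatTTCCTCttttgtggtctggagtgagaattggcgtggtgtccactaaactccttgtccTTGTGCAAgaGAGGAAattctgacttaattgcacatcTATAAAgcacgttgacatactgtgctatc
Clec4d: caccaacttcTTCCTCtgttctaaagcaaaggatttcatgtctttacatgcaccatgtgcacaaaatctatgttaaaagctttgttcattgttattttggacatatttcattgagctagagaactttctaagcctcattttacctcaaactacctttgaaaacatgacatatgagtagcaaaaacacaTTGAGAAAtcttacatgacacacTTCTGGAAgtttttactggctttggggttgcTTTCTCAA

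The motifs searched were the ETS core GAGGAA, AP-1 (TGANTCA), C/EBP (TTNCNNAA), RBPJ (TGGGAA) and the TATA box (TATAAA). In the Clec4f window the capitals are a C/EBP match that overlaps an RBPJ match. The Cd207 window had 1 ETS match and, at its very end, 1 AP-1 match. The Clec4e window had 2 ETS, 2 C/EBP and 1 TATA match, and the Clec4d window 1 ETS and 3 C/EBP matches. These letters are common: among 27025 promoter windows of the same length, 23.1% held the ETS core, 36.9% the C/EBP motif, 21.5% the RBPJ motif, 13% the TATA box and 6.87% AP-1. Over the 8 members with a window, 4 held the ETS core, 3 C/EBP, 4 the TATA box, 2 AP-1 and 1 RBPJ.

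By mean level over the 5 cell types, 6 of the 9 receptors were highest in Kupffer cells, 1 in LSECs and 2 in the cultured BMDMs. Clec4f, the galactose-binding receptor after which Kupffer cells are often identified, reached 6205 and 5670 TPM in Kupffer cells of A/J, 7270 and 7568 TPM in BALB/cJ and 5881 and 5275 TPM in C57BL/6J. It averaged 711 ± 682 TPM in stellate cell libraries (SD, n = 11), 18.9 ± 22.9 TPM in LSECs (n = 12), 8.36 ± 2.28 TPM in hepatocytes (n = 7) and at most 0.067 TPM in BMDMs. The Kupffer cell range lay above every other cell type, and the LSEC and hepatocyte ranges overlapped. Within the stellate libraries, Clec4f was 842, 925, 2469 and 1274 TPM in A/J, 87.1, 235, 342 and 186 TPM in BALB/cJ and 536, 428 and 494 TPM in C57BL/6J, and the summed Kupffer cell genes had the same order of strains (2643 to 6594, 712 to 1095 and 1475 to 1940 TPM). The part of carried-over Kupffer cells or their RNA in these levels was not tested.

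The other receptors of the Kupffer cell side were lower by an order of magnitude or more. Clec1b, which encodes CLEC-2, the podoplanin receptor known best from platelets, averaged 299.97 ± 87.4 TPM in Kupffer cells (n = 6), followed by 196 ± 57 TPM in LSECs and 100.4 ± 35.6 TPM in stellate cells, with overlapping ranges, and it was at most 2.36 TPM in hepatocytes and BMDMs. Clec7a (Dectin-1, a receptor for beta-glucans) averaged 243 ± 47.9 TPM in Kupffer cells and 72.0 ± 21.6 TPM in BMDMs, and Clec4n (Dectin-2, for mannans) 197 ± 62.8 TPM in Kupffer cells and 35.7 ± 9.50 TPM in BMDMs (n = 6 each), without overlap of the libraries in either case. Cd207 (langerin, the mannose receptor that builds Birbeck granules in Langerhans cells) averaged 233 ± 151 TPM in Kupffer cells, 16.1 ± 11.6 TPM in stellate cells and 2.75 ± 2.40 TPM in BMDMs. Cd209f, a mouse homologue of DC-SIGN, averaged 49.8 ± 42.4 TPM in Kupffer cells and 10.5 ± 14.3 TPM in stellate cells. For Cd207 and Cd209f the Kupffer cell and stellate ranges overlapped. The wide spread of these last genes in Kupffer cells came with strain, as described below. As for Clec4f, the part of carried-over cells or their RNA in the stellate levels of these receptors was not tested.

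Clec4g (LSECtin) was the endothelial member. Its levels were between 3089 and 4892 TPM in LSECs, between 769 and 2094 TPM in stellate cell libraries, between 7.72 and 34.3 TPM in hepatocytes and between 2.77 and 8.39 TPM in untreated Kupffer cells. The part of carried-over LSECs or their RNA in the stellate levels was not tested. Clec4e (Mincle, a sensor of glycolipids and of dead cells) and Clec4d (MCL, its partner) were instead highest in BMDMs among untreated and PBS-treated cells. Clec4d averaged 224 ± 46.7 TPM in PBS-treated BMDMs and 10.9 ± 8.07 TPM in Kupffer cells, and Clec4e averaged 60.7 ± 16.2 TPM in BMDMs and at most 1.41 TPM in any untreated Kupffer cell library.

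**Figure D1:**
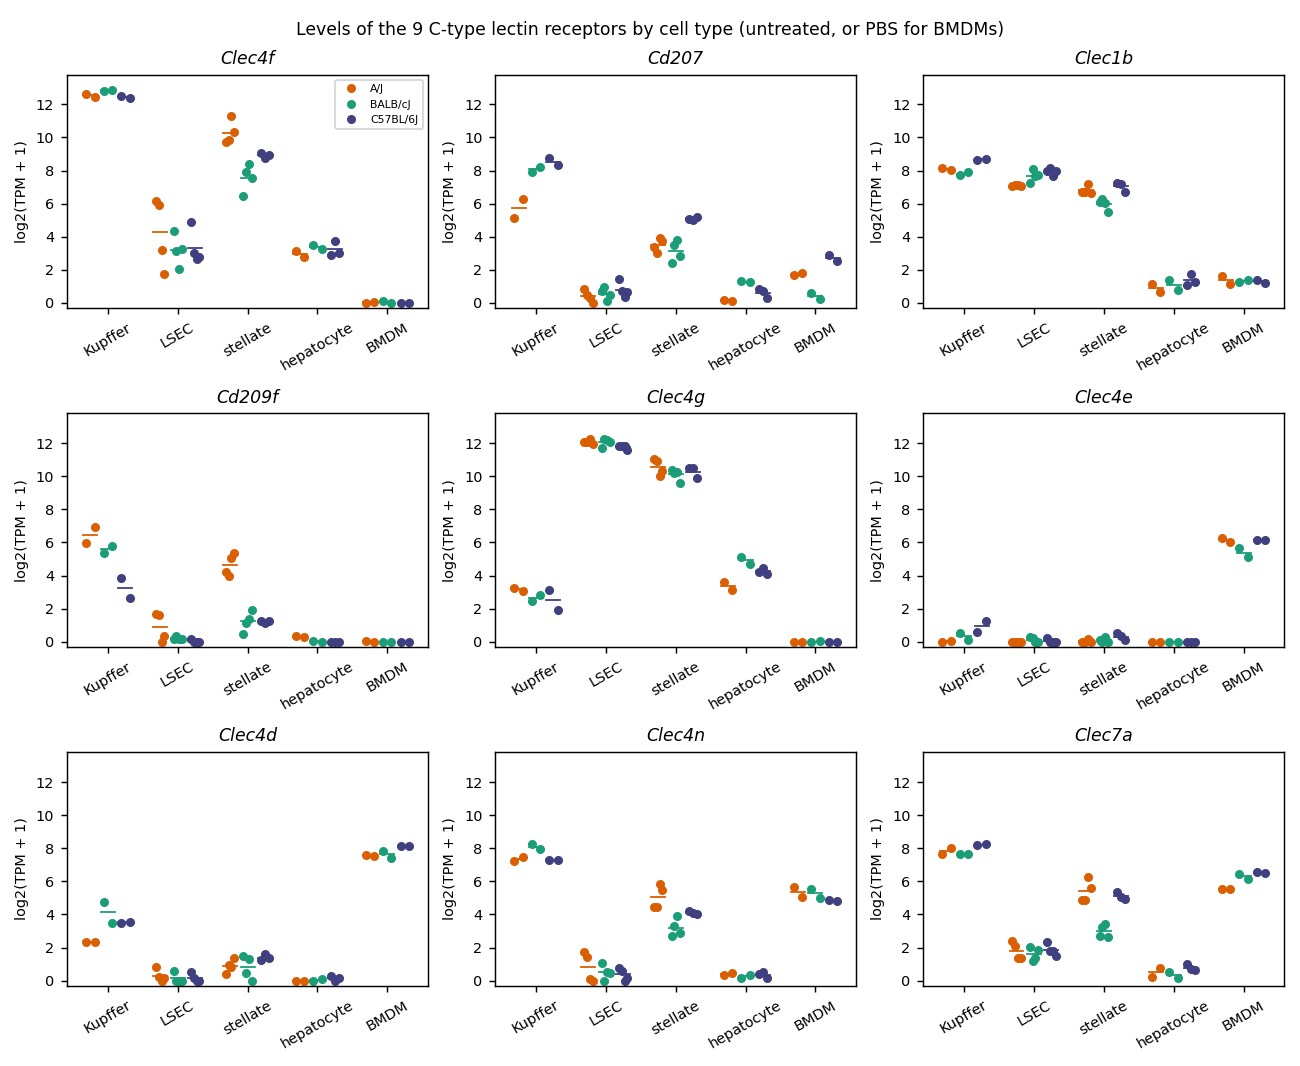
Expression of the 9 receptor genes as log2(TPM + 1) in untreated Kupffer cells, LSECs, stellate cells, hepatocytes and PBS-treated BMDMs; each point is a library, coloured by strain, and lines are means of the log2 values. The panels show Clec4f between 5275 and 7568 TPM in Kupffer cells, Clec4g between 3089 and 4892 TPM in LSECs, and Clec4e and Clec4d highest in BMDMs.

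In the test against LSECs, 8 members were tested and 7 were called, where 38.5% of all tested genes were (18.8% higher and 19.7% lower). Clec4f (log2 fold change 9.14 ± 0.60), Cd207 (9.04 ± 0.51), Clec4n (8.95), Cd209f (7.91), Clec7a (6.98 ± 0.37) and Clec4d (6.38) were higher in Kupffer cells and Clec4g was lower (−9.01 ± 0.34, adjusted p = 2.5e-22). Clec1b was only 1.92-fold higher (0.94 ± 0.18, adjusted p = 1.1e-05) and was not called. Cd207, Cd209f, Clec4d, Clec4n and Clec7a averaged under 8 TPM in LSECs of every strain, as did Clec4g in Kupffer cells. They were tested only through the cell type where they were high, so they could be called only in the direction given. Against stellate cells (37.0% of genes called, 16.4% higher and 20.5% lower), 7 members were higher, from Clec1b at 1.77 ± 0.18 to Cd207 at 4.00, and Clec4g was lower (−7.51 ± 0.32). Clec4d, under 8 TPM in stellate cells of every strain, and Clec4g had the same limit of direction there. The part of carried-over Kupffer cells and LSECs in the stellate levels was not tested. Against hepatocytes (60.5%, 30.8% higher and 29.7% lower), 7 were higher and Clec4g was lower (−2.70 ± 0.27, adjusted p = 2.5e-11). All of these but Clec4f had the same limit of direction.

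Against BMDMs, members differed in both directions. In the test of Kupffer cells against PBS-treated BMDMs (31.4% of genes called, 13.5% higher and 17.9% lower), 6 members were higher in Kupffer cells, among them Clec1b (7.70 ± 0.29), Cd207 (6.52 ± 0.57), Clec4n (2.68 ± 0.39) and Clec7a (1.81 ± 0.38, adjusted p = 6.6e-05), and 2 were lower, Clec4e (−7.22 ± 0.50, adjusted p = 1.9e-14) and Clec4d (−4.31 ± 0.38, adjusted p = 9.2e-13). Clec4f, Cd207, Clec1b and Cd209f averaged under 8 TPM in BMDMs of every strain, and Clec4e in Kupffer cells. These could again be called only in the direction given. The Kupffer cell libraries are shared by these 4 comparisons. From a list of 25 genes of C-type lectin signalling, 14 of 20 tested were higher in Kupffer cells than in LSECs and 0 were lower (median 4.51, all genes 0.05), led by the adaptor Tyrobp (8.56), Card9 (8.49) and Syk (8.41); against BMDMs 6 of 21 were higher and 2 lower (median 0.14, all genes −0.09).

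Strain differences in untreated Kupffer cells fell on Cd207, Cd209f and Clec4d. Cd207 had 34.4 and 78.1 TPM in A/J, against 236 and 301 TPM in BALB/cJ and 430 and 318 TPM in C57BL/6J, so both A/J libraries lay below all others. A/J lay below BALB/cJ (−2.33 ± 0.39, adjusted p = 0.029) and below C57BL/6J (−2.77 ± 0.40, adjusted p = 0.016), and the difference of BALB/cJ over C57BL/6J did not pass (−0.44 ± 0.37, adjusted p = 0.45). Cd209f followed another order, with 61.0 and 124 TPM in A/J, 40.5 and 55.2 TPM in BALB/cJ and 13.2 and 5.34 TPM in C57BL/6J. Over C57BL/6J it was 3.27 ± 0.52 in A/J (adjusted p = 0.022) and 2.39 ± 0.52 in BALB/cJ (adjusted p = 0.038), and A/J over BALB/cJ was 0.88 ± 0.45 (adjusted p = 0.28). Clec4d had 4.13 and 4.04 TPM in A/J, against 26.1 and 10.1 TPM in BALB/cJ and 10.4 and 10.6 TPM in C57BL/6J; A/J over BALB/cJ was −2.20 ± 0.45 (adjusted p = 0.019). A/J over C57BL/6J missed the threshold (−1.36 ± 0.46, adjusted p = 0.11) and was called with DESeq2 (−1.38, adjusted p = 0.01) and with the replicate number as a block (−1.38, adjusted p = 0.037).

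These made 2 of 7 tested members called for A/J over BALB/cJ (3.38% of all genes), 2 of 7 for A/J over C57BL/6J (4.61%) and 1 of 7 for BALB/cJ over C57BL/6J (5.70%). Clec4d averaged under 8 TPM in A/J and was tested against A/J only through the other strain, so it could be called only as lower in A/J. With 2 libraries per strain, most of these calls depended on single libraries: Cd207 in A/J over BALB/cJ had an adjusted p of 0.099 without BALB/cJ replicate 1 and 0.11 without replicate 2, and in A/J over C57BL/6J 0.068 without C57BL/6J replicate 1. Clec4d had 0.096 and 0.18 without either A/J library. Cd209f in BALB/cJ over C57BL/6J had 0.09 and 0.13 without either BALB/cJ library and 0.063 without C57BL/6J replicate 2; it was also lost with the block (2.35, adjusted p = 0.063) and in a fit over all inbred Kupffer cell libraries (2.38, adjusted p = 0.083). No loss to a left-out library was found for Cd209f in A/J over C57BL/6J. Cd209f lies in a cluster of closely related Cd209 genes, and how reads mapping to several of them were counted was not stated in the sources used.

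Other members passed the adjusted p with changes under 2-fold. Clec4n had 149 and 178 TPM in A/J, 299 and 250 TPM in BALB/cJ and 153 and 153 TPM in C57BL/6J, so that BALB/cJ stood above both (A/J over BALB/cJ −0.80 ± 0.12, adjusted p = 0.00083; BALB/cJ over C57BL/6J 0.88 ± 0.12, adjusted p = 0.00023). Clec1b had 283 and 256 TPM in A/J, 207 and 238 TPM in BALB/cJ and 395 and 421 TPM in C57BL/6J, with BALB/cJ over C57BL/6J at −0.83 ± 0.13 (adjusted p = 0.00072). Of the other lectin genes, Cd209g, the neighbour paralog of Cd209f, differed in the same direction as Cd209f (A/J over C57BL/6J 4.71 ± 0.36; BALB/cJ over C57BL/6J 4.41), as did Cd209b in A/J over C57BL/6J (3.92). Clec7a (A/J over C57BL/6J −0.39, BALB/cJ over C57BL/6J −0.52 ± 0.11) and Clec4f (BALB/cJ over C57BL/6J 0.45 ± 0.14, adjusted p = 0.039) differed by less, and Clec4g and Clec4e were below the tested level. The scavenger collectin Colec12 was −1.93 in A/J over BALB/cJ and 3.25 in BALB/cJ over C57BL/6J. In that list 4 of 15, 5 of 16 and 3 of 15 tested genes were called in A/J over BALB/cJ, A/J over C57BL/6J and BALB/cJ over C57BL/6J. The signalling list gave 0, 1 (Src, 1.25) and 1 (Vav3, 1.08) of 20.

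BMDMs and LSECs showed few strain differences in these genes. In PBS-treated BMDMs, Clec7a had 46.2 and 45.5 TPM in A/J, against 87.6 and 71.1 TPM in BALB/cJ and 92.6 and 88.9 TPM in C57BL/6J. It was called for A/J over C57BL/6J (−1.05 ± 0.10, adjusted p = 5.7e-08), as 1 of 4 tested members where 5.59% of genes were called, and passed the adjusted p but not the fold for A/J over BALB/cJ (−0.84 ± 0.10). Without C57BL/6J replicate 1 that value was −0.99, under 2-fold. For A/J over BALB/cJ and BALB/cJ over C57BL/6J, 0 of 4 members were called by edgeR (4.20% and 4.55% of genes) or DESeq2, with 2 and 3 at an unadjusted p under 0.05. In LSECs 0 of 3 tested members were called by edgeR (2.67%, 4.14% and 3.86% of genes) or DESeq2 for A/J over BALB/cJ, A/J over C57BL/6J or BALB/cJ over C57BL/6J, with 1, 2 and 1 at an unadjusted p under 0.05. Clec1b, at 131 to 137 TPM in A/J, 153 to 271 TPM in BALB/cJ and 199 to 285 TPM in C57BL/6J, was lower in A/J by 0.58 ± 0.16 against BALB/cJ and by 0.80 ± 0.16 against C57BL/6J on the log2 scale (adjusted p = 0.029 and 0.0033), under 2-fold.

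To ask whether a strain difference was the same in both macrophages, the strain effect in BMDMs was subtracted from that in Kupffer cells. Cd207 in BMDMs was 2.23 and 2.57 TPM in A/J, 0.501 and 0.176 TPM in BALB/cJ and 6.35 and 4.69 TPM in C57BL/6J, so BALB/cJ was lowest there and A/J lowest in Kupffer cells. The difference between the strain effects was −5.06 ± 0.78 for A/J over BALB/cJ (adjusted p = 0.0031; 9.22% of genes called) and 3.52 ± 0.74 for BALB/cJ over C57BL/6J (adjusted p = 0.016; 7.32%), at BMDM levels of a few TPM or less. It had an adjusted p of 0.053 and 0.062 for BALB/cJ over C57BL/6J without either BALB/cJ BMDM library. Clec4d differed by −2.14 ± 0.57 for A/J over BALB/cJ (adjusted p = 0.028), a call that was lost without either A/J Kupffer cell library, either A/J BMDM library or BALB/cJ BMDM replicate 2 (−2.24 to −1.93, adjusted p = 0.066 to 0.12). Clec4e differed by −5.05 ± 1.43 for A/J over C57BL/6J (adjusted p = 0.033; 7.94%), which rests on 0 and 1 counts in A/J Kupffer cells and was lost without either of these, C57BL/6J Kupffer cell replicate 2, A/J BMDM replicate 1 or either C57BL/6J BMDM library (−8.32 to −4.12).

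Endotoxin raised the Syk-coupled receptors of the Clec4 cluster in Kupffer cells and lowered Cd207. Clec4e had 95.8 and 109 TPM after LPS in BALB/cJ, against 0.451 and 0.101 TPM untreated. In C57BL/6J it had 77.3 and 54.5 TPM, against 0.534 and 1.41 TPM, and in CB6F1/J 80.7, 90.4, 70.9, 75.3 and 95.9 TPM, against 0.538, 0.486, 0.243 and 0.246 TPM. The increase was 8.95 ± 0.50 (adjusted p = 2.8e-06), 6.76 ± 0.44 (adjusted p = 5.7e-06) and 8.73 ± 0.25 (adjusted p = 8.8e-12) in the order BALB/cJ, C57BL/6J, CB6F1/J. Untreated levels stood on 2 to 23 counts per library in BALB/cJ and C57BL/6J, so the size of the change there is less certain than its direction.

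Clec4d and Clec4n moved the same way. Clec4d had 194 and 240 TPM after LPS in BALB/cJ, against 26.1 and 10.1 TPM untreated, and 88.2 and 64.7 TPM in C57BL/6J, against 10.4 and 10.6 TPM (4.10 ± 0.42 and 3.53 ± 0.43, adjusted p = 0.00015 and 0.00027). In CB6F1/J its level was 154, 196, 115, 123 and 181 TPM, against 7.56, 9.97, 4.01 and 5.67 TPM (5.36 ± 0.32, adjusted p = 1.4e-08). Clec4n, already abundant, reached 523 and 527 TPM in BALB/cJ, against 299 and 250 TPM, and 344 and 311 TPM in C57BL/6J, against 153 and 153 TPM (1.47 ± 0.14 and 1.77 ± 0.14). In CB6F1/J it was 356 to 402 TPM, against 169 to 182 TPM (2.01 ± 0.08, adjusted p = 2e-10). No LPS library overlapped an untreated library of its strain for any of the 3 genes.

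Cd207 fell. It had 53.3 and 92.9 TPM after LPS in BALB/cJ, against 236 and 301 TPM untreated, 107 and 71.6 TPM in C57BL/6J, against 430 and 318 TPM, and 70.2 to 93.6 TPM in CB6F1/J, against 272 to 378 TPM. The change was −1.35 ± 0.29 (adjusted p = 0.0044), −1.40 ± 0.29 (adjusted p = 0.003) and −1.06 ± 0.12 (adjusted p = 2.9e-06), and in BALB/cJ it was −0.99, just under 2-fold, without LPS replicate 1. Thus 3 members rose and 1 fell of 9 tested in BALB/cJ (31.8% of genes called, 17.4% higher and 14.4% lower), of 8 in C57BL/6J (38.2%, 20.9% and 17.3%) and of 9 in CB6F1/J (39.6%, 22.0% and 17.6%). Clec4e in each strain and Clec4d in CB6F1/J averaged under 8 TPM untreated. They were tested only through the LPS groups, so they could be called only as a rise.

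Clec1b and Clec7a were lower in TPM after LPS in all 3 strains without being called. Clec1b had 61.1 and 125 TPM in BALB/cJ, against 207 and 238 TPM, 123 and 134 TPM in C57BL/6J, against 395 and 421 TPM, and 77.0 to 108 TPM in CB6F1/J, against 236 to 321 TPM (−0.73 ± 0.30, −0.99 ± 0.30 and −0.84 ± 0.12, adjusted p = 0.064, 0.018 and 3.3e-05). Single libraries decided whether Clec1b was called: in BALB/cJ it ran from −1.37 without LPS replicate 2 (adjusted p = 0.00051, called) to −0.29, and in C57BL/6J it was called without untreated replicate 1 (−1.06, adjusted p = 0.046). Clec7a had 113 and 107 TPM in BALB/cJ, against 202 and 202 TPM, 100.5 and 114 TPM in C57BL/6J, against 287 and 309 TPM, and 63.4 to 102 TPM in CB6F1/J, against 159 to 215 TPM. TPM and the fitted changes differ here because the normalization that centres most genes moved the median of all tested genes by 0.52, 0.65 and 0.86 (log2) relative to TPM in BALB/cJ, C57BL/6J and CB6F1/J. With library totals instead, a setting added after the data had been seen, Clec1b was called in all 3 (−1.27, −1.67 and −1.69), Clec7a in C57BL/6J and CB6F1/J (−1.48 and −1.25), Cd209f in BALB/cJ (−1.25), and Clec4n in BALB/cJ was no longer called (0.94). Clec4f in CB6F1/J, at 3949 to 4250 TPM after LPS against 5804 to 6076 TPM, was 0.38 ± 0.07 by the centred fit and −0.46 with library totals, so its direction depends on the scaling. Clec4f in the inbred strains (−0.02 in BALB/cJ, −0.11 in C57BL/6J), Cd209f (−0.71, 0.71 and, in CB6F1/J, −0.08) and Clec4g (1.12 ± 0.55 in BALB/cJ, and in CB6F1/J 0.54 ± 0.23, or −0.30 with library totals) were not called.

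**Figure D2:**
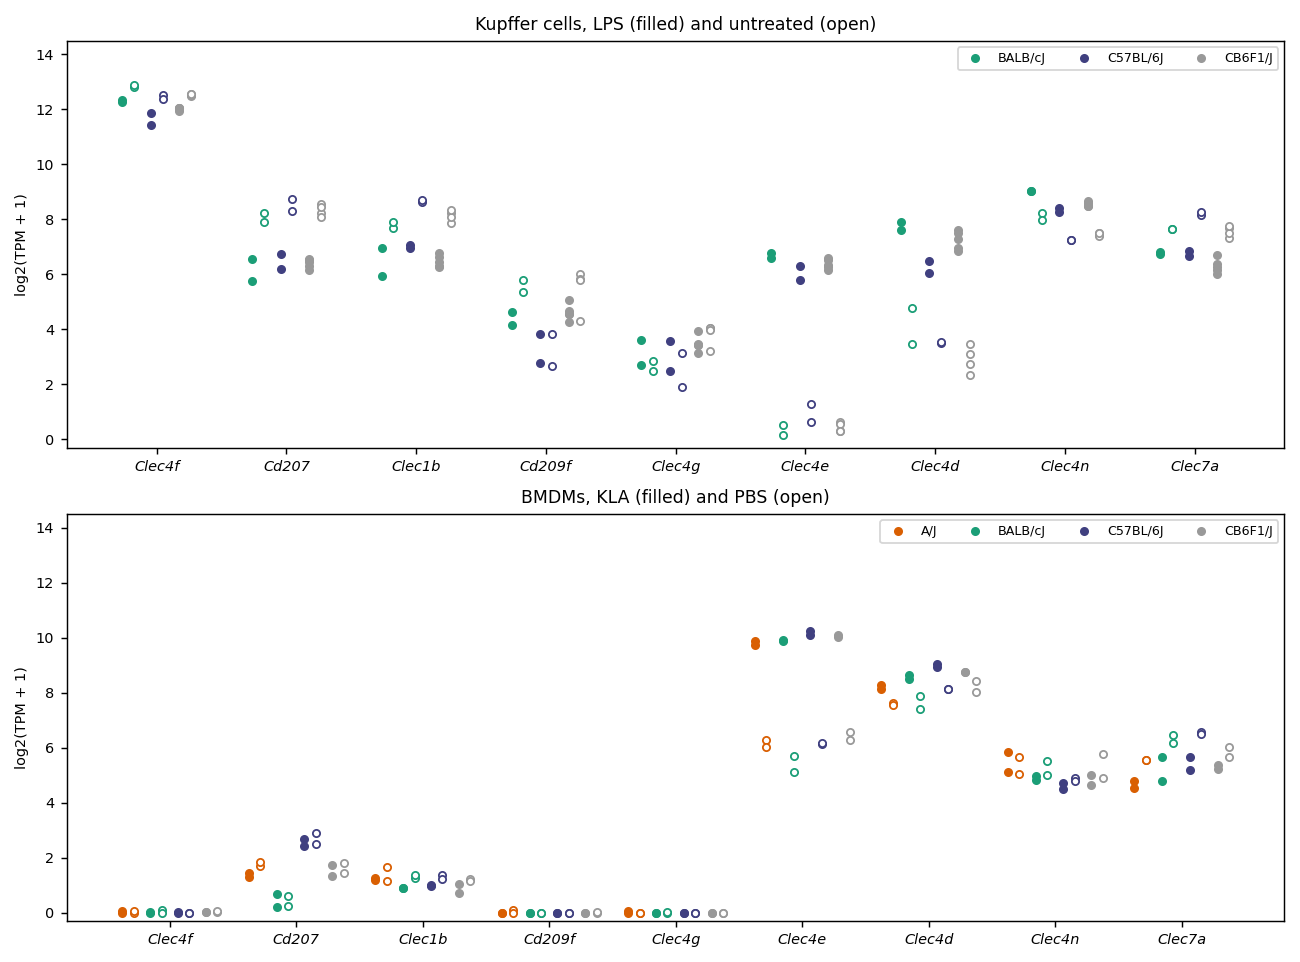
TPM on a log2(TPM + 1) axis for the receptor genes in Kupffer cells after LPS (filled points) and untreated (open points) and in BMDMs after KLA (filled) and PBS (open), by strain; each point is a library. In Kupffer cells, Clec4e lies between 54.5 and 109 TPM after LPS and at or under 1.41 TPM untreated, while Cd207 after LPS lies below untreated libraries of the same strain.

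A difference in response between the inbred strains was called for 0 members in BALB/cJ over C57BL/6J (0.645% of genes called by edgeR), with 1 member, Clec4e, at an unadjusted p under 0.05. It differed by 2.19 ± 0.72 (adjusted p = 0.24), and by 2.21 with DESeq2, which called it (adjusted p = 0.019). The neutrophil genes, 7 in the list, summed to 42.1 to 128 TPM after LPS in the inbred strains, against 2.15 to 10.2 TPM untreated. The monocyte genes summed to 108 to 204 TPM, against 10.5 to 167 TPM. The summed Kupffer cell genes were 10271 to 12317 TPM, against 13813 to 15304 TPM. Neutrophils and monocytes can carry Clec4e and Clec4d, and their part in the result was not tested. In bulk libraries of this kind, fewer cells of a type and less RNA per cell cannot be told apart.

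Among the signalling genes, 12 of 24 tested rose and 1 fell in BALB/cJ, 12 rose and 2 fell in C57BL/6J and 14 rose and 1 fell in CB6F1/J, with medians of 1.37, 1.55 and 1.56 against 0.05, 0.08 and 0.13 for all genes. The cytokine genes led, Il12b (9.63, 9.05 and 10.17), Tnf (6.72, 6.59 and 6.12) and Il6 (5.51, 5.17 and 5.75). This list includes the cytokine and chemokine genes Il1b, Il6, Tnf, Il23a, Il12b, Il10, Cxcl1 and Cxcl2. A gene low in untreated cells could enter the test only through the LPS group, and then only as a rise. The part of lectin signalling in these counts and medians was not tested. The other lectin genes split: 4 of 15 rose and 4 fell in BALB/cJ, among them the activation receptor Cd69 (6.87), Clec2d (2.99), Clec9a, a receptor of cross-presenting dendritic cells (−2.61), and Clec4b1 (−1.78). In C57BL/6J 2 rose, Cd69 (7.54) and Clec2d (3.68), and 2 fell, Clec2i (−3.87) and Clec9a (−2.98). In CB6F1/J 5 of 14 rose and 2 fell.

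In BMDMs, KLA raised Clec4e in all 4 strains and Clec4d by more than 2-fold in 2 of them. Clec4e had 854 and 945 TPM after KLA in A/J, against 77.1 and 64.0 TPM after PBS, 931 and 963 TPM in BALB/cJ, against 50.3 and 33.2 TPM, 1092 and 1215 TPM in C57BL/6J, against 69.0 and 70.4 TPM, and 1080 and 1041 TPM in CB6F1/J, against 75.6 and 94.1 TPM. It rose by 4.01 ± 0.17, 4.82 ± 0.18, 4.35 ± 0.18 and 4.01 ± 0.13 in the same order of strains (adjusted p = 1.3e-09, 2.6e-10, 4.7e-10 and 1.1e-06). The difference of its response, A/J over BALB/cJ, was −0.81 ± 0.22 (adjusted p = 0.059; 0.967% of genes called). Clec4d had 277 and 308 TPM in A/J, against 196 and 188 TPM, 395 and 356 TPM in BALB/cJ, against 232 and 170 TPM, 521 and 492 TPM in C57BL/6J, against 278 and 278 TPM, and 432 and 433 TPM in CB6F1/J, against 259 and 343 TPM.

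Clec4d rose by more than 2-fold in BALB/cJ (1.22 ± 0.12) and C57BL/6J (1.17 ± 0.12) and stayed below that in A/J (0.94 ± 0.12, adjusted p = 4.5e-06) and CB6F1/J (0.85 ± 0.15, adjusted p = 0.0037). With library totals the values in BALB/cJ and C57BL/6J were 0.88 and 0.85, and the calls were lost; the shift of the median against TPM was 0.30 to 0.33. Clec4n, which LPS had raised in Kupffer cells, was 21.7 to 55.7 TPM after KLA in the inbred strains, against 26.9 to 50.1 TPM after PBS, and changed by 0.47, −0.11, 0.05 and −0.23 without a call. Clec7a had 26.3 and 22.4 TPM in A/J, against 46.2 and 45.5 TPM, 49.8 and 26.5 TPM in BALB/cJ, against 87.6 and 71.1 TPM, and 49.4 and 34.9 TPM in C57BL/6J, against 92.6 and 88.9 TPM (−0.58, −0.75 ± 0.30 and −0.80 ± 0.30, not called; −1.09 and −1.11 and called in BALB/cJ and C57BL/6J with library totals). The Clec7a change in BALB/cJ ran from −1.28 without KLA replicate 1 (adjusted p = 0.00062, called) to −0.32, and in C57BL/6J it was called without KLA replicate 1 (−1.09, adjusted p = 0.045).

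Of 4 tested members, 1 rose in A/J (12.3% of genes called, 8.11% higher), 2 in BALB/cJ (14.0%, 9.30%), 2 in C57BL/6J (17.1%, 10.7%) and 1 in CB6F1/J (12.5%, 8.76%). The 2 h dose in the animal and the dose in culture are different agents at different doses, and the Kupffer cell and BMDM responses are given side by side without a test. Signalling genes rose in 11 or 12 of 24 in each strain, led by Il6 and Il12b. As for LPS, the list includes cytokine genes, and the part of lectin signalling in these counts was not tested. The other lectin genes rose in 4 of 14 in each inbred strain, among them Cd69 and the oxidised lipoprotein receptor Olr1.

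On the AMLN diet Cd207, Cd209f, Clec4f, Clec4d and Clec4g were each called in 1 or 2 of the 3 strains. Cd207 had 248, 146, 270 and 230 TPM on the diet in A/J, against 34.4 and 78.1 TPM untreated, a rise of 2.15 ± 0.33 (adjusted p = 0.0023). It had 101, 185 and 129 TPM in BALB/cJ, against 236 and 301 TPM, a fall of 1.09 ± 0.30 on the log2 scale (adjusted p = 0.042). In C57BL/6J it had 405, 540, 514 and 386 TPM, against 430 and 318 TPM (0.51 ± 0.30, adjusted p = 0.2). The diet and untreated libraries did not overlap in A/J or BALB/cJ and did in C57BL/6J.

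The response of Cd207 differed between strains by test: A/J over BALB/cJ was 3.24 ± 0.44 (adjusted p = 0.0043; 0.247% of genes called) and BALB/cJ over C57BL/6J was −1.61 ± 0.43 (adjusted p = 0.036; 6.38%), while A/J over C57BL/6J missed the threshold (1.63 ± 0.42, adjusted p = 0.066; 1.45%), and was called with DESeq2 (1.64, adjusted p = 0.009) and without A/J diet replicate 2 (1.78, adjusted p = 0.038). Without A/J untreated replicate 1, at 34.4 TPM, the diet effect in A/J was 1.72 (adjusted p = 0.064) and the difference from BALB/cJ 2.83 (adjusted p = 0.054). The fall in BALB/cJ lost its call without untreated replicate 1 or 2 (adjusted p = 0.15 and 0.3) or diet replicate 1 or 3 (0.092 and 0.12), and the BALB/cJ over C57BL/6J difference lost it in 9 of 11 such fits, all but those without BALB/cJ diet replicate 2 or C57BL/6J diet replicate 4 (adjusted p up to 0.16). With library totals, the fall in BALB/cJ was −0.99 (adjusted p = 0.079) and its difference from C57BL/6J −1.47 (adjusted p = 0.054); the shift of the median against TPM for the 3 strains was 0.12 (A/J), −0.12 (BALB/cJ) and 0.20 (C57BL/6J).

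Cd209f fell to a few TPM or less on the diet in A/J and C57BL/6J. It had 0.309, 1.20, 1.61 and 7.92 TPM in A/J, against 61.0 and 124 TPM (−5.03 ± 0.74, adjusted p = 0.0022), and 0.325, 0.22, 0.408 and 0.972 TPM in C57BL/6J, against 13.2 and 5.34 TPM (−4.05 ± 0.83, adjusted p = 0.003). In BALB/cJ it had 14, 9 and 19.3 TPM, against 40.5 and 55.2 TPM, with no overlap but no call (−1.88 ± 0.74, adjusted p = 0.16; called with the replicate block, −2.16, adjusted p = 0.021). Its diet effect in A/J over BALB/cJ was −3.15 ± 1.07 (adjusted p = 0.55), in A/J over C57BL/6J −0.98 ± 1.18 (adjusted p = 0.76) and in BALB/cJ over C57BL/6J 2.17 ± 1.14 (adjusted p = 0.23), and was called with the block for A/J over BALB/cJ (−4.28, adjusted p = 0.029) and BALB/cJ over C57BL/6J (3.04, adjusted p = 0.032), and for A/J over BALB/cJ also without A/J diet replicate 4 (−4.47, adjusted p = 0.024). The C57BL/6J value was −3.29 (adjusted p = 0.063) without untreated replicate 1. Its paralog Cd209g changed by −6.15 ± 0.90 in A/J.

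Clec4f was lower on the diet in each strain, with 2606, 4074, 3794 and 4173 TPM in A/J, against 6205 and 5670 TPM, 4909, 5096 and 4347 TPM in BALB/cJ, against 7270 and 7568 TPM, and 1595, 2345, 2222 and 1917 TPM in C57BL/6J, against 5881 and 5275 TPM. Only the C57BL/6J change was called (−1.26 ± 0.19, adjusted p = 0.00036); A/J was −0.59 ± 0.19 (adjusted p = 0.087) and BALB/cJ −0.76 ± 0.20 (adjusted p = 0.033), and this difference between strains was not called in any pair. Clec4d fell in BALB/cJ, with 9.94, 5.99 and 5.26 TPM on the diet, against 26.1 and 10.1 TPM (−1.47 ± 0.42, adjusted p = 0.047); without untreated replicate 1 it was −0.63 (adjusted p = 0.74), so that library decides the value, and it lost its call without diet replicate 2 or 3 as well (adjusted p = 0.13 and 0.14). Clec7a spread widely in A/J (266, 73.3, 339 and 364 TPM on the diet, against 203 and 257 TPM) and in C57BL/6J had 729, 417, 528 and 604 TPM, against 287 and 309 TPM (1.14 ± 0.51, adjusted p = 0.1). Clec1b moved by −0.34 to −0.18 and Clec4n by −0.83 (BALB/cJ, adjusted p = 0.028), −0.55 and 0.10, without a call, and Clec4e stayed between 0.154 and 3.81 TPM on the diet.

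**Figure D3:**
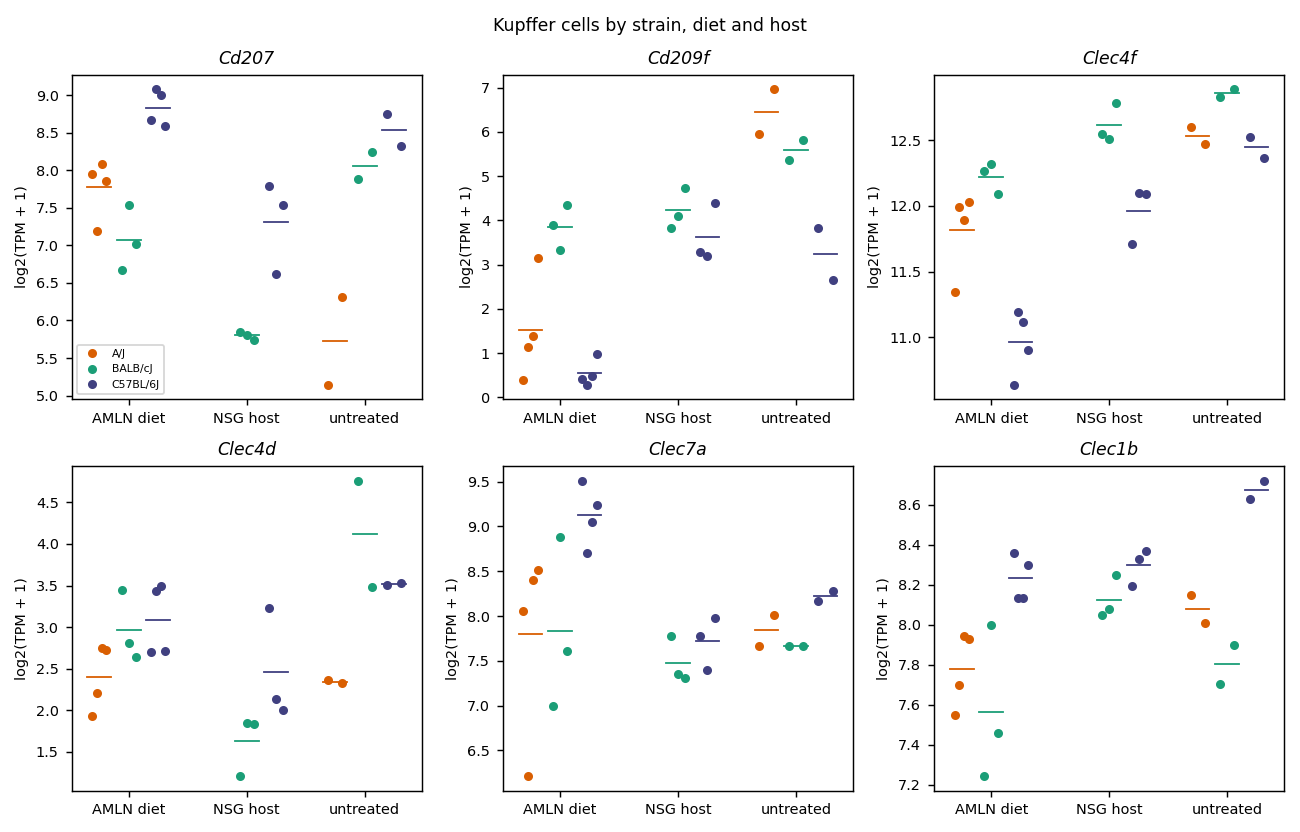
Cd207, Cd209f, Clec4f, Clec4d, Clec7a and Clec1b in Kupffer cells on the AMLN diet, from NSG hosts and untreated, as log2(TPM + 1); points are libraries coloured by strain, lines are means of the log2 values, and axes do not start at 0. Cd207 on the diet lies above untreated libraries in A/J (146 to 270 TPM) and below them in BALB/cJ (101 to 185 TPM), and Cd209f is at or under 7.92 TPM on the diet in A/J and C57BL/6J.

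Clec4g, the endothelial receptor, appeared in Kupffer cell libraries of the diet. It had 24.4, 269, 151 and 214 TPM in A/J, against 8.39 and 7.57 TPM untreated (4.46 ± 0.90, adjusted p = 0.01), and 251, 192 and 877 TPM in BALB/cJ, against 4.62 and 6.12 TPM (6.22 ± 1.00, adjusted p = 0.0016). In C57BL/6J it had 7.63, 18.2, 14.1 and 14.6 TPM, against 7.77 and 2.77 TPM (1.57 ± 0.82, adjusted p = 0.16), and BALB/cJ over C57BL/6J differed by 4.66 ± 1.16 (adjusted p = 0.028). The A/J call was lost without untreated replicate 1 (adjusted p = 0.11) or 2 (0.17), and the strain difference without BALB/cJ untreated replicate 1 (0.12) or 2 (0.11), C57BL/6J untreated replicate 1 (0.19) or C57BL/6J diet replicate 1 (0.0502).

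The 8 LSEC genes moved with it. They summed to 140 to 696 TPM in A/J and 408 to 1909 TPM in BALB/cJ on the diet, against 62 to 134 TPM in untreated inbred Kupffer cells, and to 87.4 to 136 TPM in C57BL/6J on the diet. Kdr, a VEGF receptor of endothelium, had 72.2, 84.7 and 394 TPM in BALB/cJ on the diet and 0.797 to 1.96 TPM in untreated Kupffer cells. The library with the most Clec4g was also the one with the most Kdr, and the ratio of Clec4g to Stab2 was 1.44 to 2.84 in BALB/cJ and 0.28 to 1.46 in A/J on the diet, against 2.50 to 4.91 in LSECs and 0.03 to 0.10 in untreated Kupffer cells. The part of endothelial cells or their RNA in the rise of Clec4g was not tested. The endothelial lectin gene Clec14a rose as well (5.48 in A/J, 6.59 in BALB/cJ). Cd93, another gene of the lectin list, rose by 2.35 in A/J and by 4.03 in BALB/cJ. Its largest rise was in C57BL/6J (6.23). There the LSEC genes summed to 87.4 to 136 TPM on the diet, against 106 to 115 TPM untreated, and Clec4g was not called. The source of the Cd93 rise was not tested.

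On the diet 3 of 7 tested members were called in A/J (2 higher, 1 lower; 3.49% of genes, 2.66% higher and 0.832% lower), 3 of 8 in BALB/cJ (1 higher, 2 lower; 5.17%, 4.78% and 0.389%) and 2 of 8, both lower, in C57BL/6J (12.1%, 6.73% and 5.38%). Clec4g averaged under 8 TPM untreated in each strain and was tested only through the diet groups, so it could be called only as a rise. Cd209f in A/J and C57BL/6J and Clec4d in BALB/cJ averaged under 8 TPM on the diet. They were tested there only through the untreated groups, so they could be called only as a fall. Of the other lectin genes 3 of 19, 4 of 19 and 7 of 15 were called, and of the signalling genes 0 of 21, 0 of 20 and 1 of 21. The neutrophil genes summed to 20.2 to 235 TPM on the diet, against 1.61 to 10.2 TPM untreated. Genes of B and T cells summed to 11.2 to 32.5 TPM, against 0.344 to 5.62 TPM. The monocyte genes were higher in A/J (138 to 192 TPM, against 20.0 to 47.5 TPM) and BALB/cJ (24.5 to 94.2 TPM, against 10.5 to 20.5 TPM), but not in C57BL/6J (86.1 to 127 TPM, against 116 to 167 TPM). Hepatocyte genes summed to 1096 to 1835 TPM in BALB/cJ, against 104 to 235 TPM, and to 81.6 to 2628 TPM in A/J, against 288 to 429 TPM, and stellate cell genes in BALB/cJ to 398 to 779 TPM, against 294 to 360 TPM. The part of any of these cells or their RNA in the changes on the diet was not tested.

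Kupffer cells that had formed from inbred donor marrow in NSG hosts had Clec4f within 2-fold of untreated cells and less Cd207. In CB6F1/J donor cells, which are set side by side with untreated cells below, the Cd207 level was higher instead. Clec4f had 5980, 5829 and 7024 TPM in BALB/cJ donor cells, against 7270 and 7568 TPM in untreated BALB/cJ mice, and 3343, 4383 and 4348 TPM in C57BL/6J donor cells, against 5881 and 5275 TPM. Its change passed the adjusted p in C57BL/6J (−0.52 ± 0.14, adjusted p = 0.0089), under 2-fold. Cd207 had 56.7, 55.1 and 52.4 TPM in BALB/cJ donor cells, against 236 and 301 TPM (−2.33 ± 0.30, adjusted p = 0.0012), and 220, 96.9 and 186 TPM in C57BL/6J donor cells, against 430 and 318 TPM (−1.22 ± 0.29, adjusted p = 0.012). No NSG library overlapped the untreated ones. The C57BL/6J call was lost without untreated replicate 1 (−1.02, adjusted p = 0.088) or NSG replicate 2 (−0.98).

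Within the NSG hosts the strains differed in Cd207. BALB/cJ over C57BL/6J was −1.54 ± 0.27 there (adjusted p = 0.0073; 3.98% of genes called), whereas in untreated mice it had been −0.44 ± 0.37. The difference between the NSG effects itself was −1.11 ± 0.42 (adjusted p = 0.29) and was not called (1.29% of genes), so a change of the strain difference was not shown. Clec4d fell in BALB/cJ donor cells, with 1.32, 2.59 and 2.58 TPM, against 26.1 and 10.1 TPM (−3.07 ± 0.49, adjusted p = 0.0009). In C57BL/6J donor cells it had 8.42, 3.40 and 3.00 TPM, against 10.4 and 10.6 TPM (−1.15 ± 0.47, adjusted p = 0.071), which was called with DESeq2 (−1.17, adjusted p = 0.038) and without NSG replicate 1 (−1.77, adjusted p = 0.0087). Markers of other blood cells were higher in the NSG libraries. Genes of B and T cells summed to 58.5 to 245 TPM in BALB/cJ donor cells, against 0.621 to 0.676 TPM, and to 221 to 358 TPM in C57BL/6J donor cells, against 3.17 to 5.62 TPM. Dendritic cell genes summed to 14.6 to 63.0 TPM over both donors, against 0.615 to 1.98 TPM, and monocyte genes to 125 to 194 TPM in BALB/cJ donor cells, against 10.5 to 20.5 TPM, and to 186 to 228 TPM in C57BL/6J donor cells, against 116 to 167 TPM. Their part in the changes of Cd207, Clec4d and the other members was not tested.

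Clec4g rose in both, to 18.3, 25.7 and 16.4 TPM in BALB/cJ donor cells, against 4.62 and 6.12 TPM (1.87 ± 0.39, adjusted p = 0.005), and to 35.6, 45.6 and 24.5 TPM in C57BL/6J donor cells, against 7.77 and 2.77 TPM (2.68 ± 0.40, adjusted p = 0.00037). The LSEC genes summed to 112 to 168 TPM in these libraries, against 61.7 to 115 TPM in untreated BALB/cJ and C57BL/6J Kupffer cells, and their part in the rise was not tested. The BALB/cJ call was lost without untreated replicate 1 (1.68, adjusted p = 0.074). Thus 3 of 8 members were called in BALB/cJ (5.48% of genes) and 2 of 8 in C57BL/6J (8.44%). Clec4g is in both counts. It averaged under 8 TPM untreated in both strains and was tested only through the NSG groups, so it could be called only as a rise. Clec4d averaged under 8 TPM in BALB/cJ donor cells and was tested in BALB/cJ only through the untreated group. It could be called there only as a fall. Clec1b was called in neither, but its NSG effect differed between the strains by 0.73 ± 0.16 (adjusted p = 0.028), under 2-fold, with 264, 269 and 303 TPM in BALB/cJ donor cells, against 207 and 238 TPM, and 291, 321 and 329 TPM in C57BL/6J donor cells, against 395 and 421 TPM. Cd209f, Clec4n and Clec7a were not called in either strain: Cd209f had 13.2, 16.2 and 25.7 TPM in BALB/cJ donor cells, against 40.5 and 55.2 TPM (−1.39 ± 0.47, adjusted p = 0.069; called with DESeq2 at −1.40, adjusted p = 0.0028, with the replicate block at −1.82, adjusted p = 0.00053, and without NSG replicate 3 at −1.75, adjusted p = 0.028), Clec4n changed by −0.26 in BALB/cJ and 0.42 ± 0.12 in C57BL/6J, and Clec7a by −0.20 and −0.54 ± 0.16. Clec4e was at 1.88 to 3.68 TPM in the inbred NSG libraries, under the tested level. Among other lectin genes the collectin Colec12 fell in both (−1.88 and −5.11), as did thrombomodulin, Thbd (−3.75 and −1.89).

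CB6F1/J hybrids place both alleles in one nucleus, and reads over strain variants gave the share of each allele for 4 members. Variant reads were at 0 for Clec1b, Clec4g, Clec4e, Clec4d and Clec4n. For Cd207 the BALB/cJ allele gave 30.7% ± 1.27 of reads in untreated Kupffer cells (SD, n = 4, range 29.2 to 31.8%, 12310 to 14788 reads per library), 29.3% ± 1.52 after LPS (n = 5, 27.9 to 31.7%, 2075 to 3717 reads) and 25.0, 23.6 and 29.5% in NSG hosts (19969 to 20923 reads). Every one of these 12 libraries lay below an equal share. For the test, both allele counts of a mouse were fitted as separate libraries, with no mouse block. With a mouse block, all 18 allelic member values stayed on the same side of the threshold. The BALB/cJ allele was lower than the C57BL/6J allele by −1.14 ± 0.13 (adjusted p = 0.00017), −1.22 ± 0.17 (adjusted p = 4.3e-05) and −1.44 ± 0.31 (adjusted p = 0.02), and LPS moved the difference by −0.10 ± 0.23 (adjusted p = 1; 0.810% of genes called).

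That made Cd207 the 1 called member of 4 tested in untreated cells (4.11% of genes called), of 4 after LPS (5.78%) and of 3 in NSG hosts (3.94%). The NSG value was −1.39 with an adjusted p of 0.27 without NSG replicate 1. With all reads that match a genome perfectly, which count for both alleles where they span no variant, in place of variant-spanning reads, the untreated and LPS differences were −0.43 (adjusted p = 0.13) and −0.46 (adjusted p = 0.11) and were not called. In BMDMs the share was 45.6 and 45.7% after KLA and 50.0 and 38.8% after PBS, on 62.5 to 112 reads. Set beside the parents, BALB/cJ made up 41.8% of the summed mean TPM of both strains in untreated cells, 45% after LPS and 24.6% in NSG hosts; the parental minus the allelic difference was 0.67 ± 0.24 (adjusted p = 0.082), 0.94 ± 0.37 and −0.04 ± 0.42, with 0 members called (4.99%, 2.19% and 2.88% of genes called by edgeR) and 4, 3 and 1 members at an unadjusted p under 0.05.

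For Cd209f, the BALB/cJ share was high between the parents and below an equal share between the alleles in untreated cells. BALB/cJ made up 83.8% of the parental level, while its allele gave 42.3% ± 2.13 of reads in untreated CB6F1/J Kupffer cells (n = 4, 731 to 2477 reads) and 44.7% ± 5.69 after LPS (n = 5). The allelic difference was −0.38 ± 0.49 (adjusted p = 0.81) and −0.24 ± 0.17 (adjusted p = 0.58). The parental minus the allelic difference in untreated cells was 2.73 ± 0.91 and missed the threshold (adjusted p = 0.08; 0.0074 with DESeq2, where it was called). Leaving out untreated CB6F1/J replicate 2 gave 2.71 with an adjusted p of 0.00033. In NSG hosts the shares were 30.2% (95% Wilson interval 24.5 to 36.4), 17.1% (11.1 to 25.5) and 70.5% (51.8 to 86.8), on 227, 105 and 22 reads, and the third interval lay apart from the other two. Its paralog Cd209g had a parental minus allelic difference of 4.16 ± 0.94 (adjusted p = 0.013) in untreated cells and 3.73 ± 0.69 (adjusted p = 0.0035) after LPS, both called.

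Clec4f and Clec7a were close to balance. The BALB/cJ allele of Clec4f gave 52.7% ± 0.47 after LPS (n = 5), 54.1% ± 0.28 in NSG hosts (n = 3) and 52.6% ± 0.15 in untreated cells (n = 4, 147341 to 195747 reads), and its difference passed the adjusted p only in untreated cells (0.18 ± 0.06, adjusted p = 0.042), far under 2-fold. Clec7a gave 50.4% ± 2.49, 50.3% ± 1.65 and 51.1% ± 1.81 in the same groups, and 50.8% ± 2.96 and 53.6% ± 2.17 in BMDMs after KLA and PBS. In BMDMs Clec7a was the 1 member tested, was called by neither edgeR nor DESeq2 after KLA (3.41% of genes) or PBS (3.27%), and had 0 values at an unadjusted p under 0.05. Its parental minus allelic difference was −0.65 ± 0.18 in untreated Kupffer cells (adjusted p = 0.022), under 2-fold. Intervals on reads cover counting error only.

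**Figure D4:**
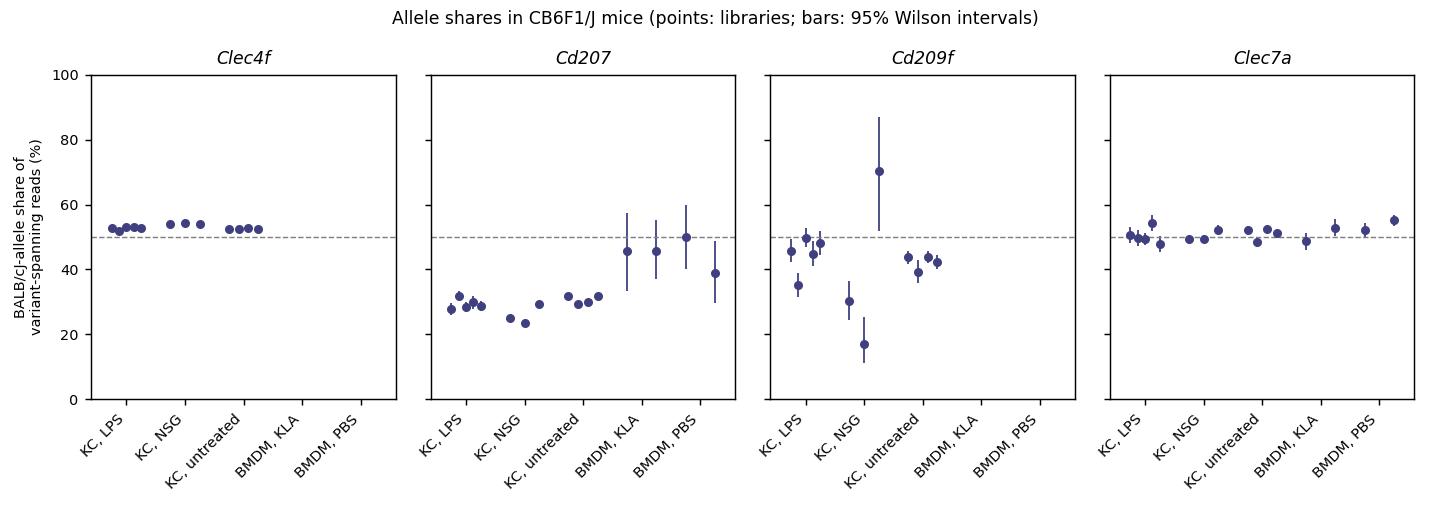
Share of variant-spanning reads from the BALB/cJ allele (%) for Clec4f, Cd207, Cd209f and Clec7a in CB6F1/J Kupffer cells (KC) and BMDMs, for libraries with at least 10 such reads; points are libraries, bars 95% Wilson intervals and the dashed line an equal share. Cd207 in Kupffer cells lies between 23.6 and 31.8%, and Clec4f at 52 to 54%.

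The CB6F1/J tables for NSG hosts and for untreated mice were normalised apart, so levels are only set side by side. Cd207 had 660, 481 and 957 TPM in NSG hosts and 272 to 378 TPM in untreated CB6F1/J Kupffer cells. Clec1b had 652 to 728 and 236 to 321 TPM, and Clec4n 291 to 379 and 169 to 182 TPM. The monocyte genes summed to 455 to 638 TPM in NSG hosts and 21.0 to 51.3 TPM in untreated mice, and their part was not tested. In the inbred donors Cd207 had been lower in NSG hosts than untreated; the hybrid marrow was given into the tail vein and the inbred marrow behind the eye.

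Over the means of the 25 inbred groups, each receptor was matched with the genes whose log2(TPM + 1) followed it most closely among 11922 genes. This is a description over groups that share strains and libraries' cell types. Clec4f went with Vsig4 (r = 0.995), the complement receptor of Kupffer cells, and Clec4g with the endothelial water channel Aqp1 (0.999), Ehd3 (0.996) and the orphan receptor Gpr182 (0.995). Clec1b went with Ptprm (0.987), Adcy4 (0.984) and the endothelial cadherin Cdh5 (0.972). Cd209f was most like its paralog Cd209g (0.940), and Cd207 most like the eosinophil-type ribonucleases Ear12 (0.957), Ear3 (0.957) and Ear2 (0.954), which are themselves near-identical copies. Clec4n went with Sla (0.984) and the co-stimulator Cd86 (0.984), Clec7a with Degs2 (0.987) and Evl (0.981), Clec4e with Kpna3 (0.977) and Tnip3 (0.969), and Clec4d with Actg1 (0.956).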

How the data were processed

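Libraries were poly(A)-selected and made with a dUTP protocol. Per the labels and the study's methods, the authors mapped reads with STAR to genomes of each strain built on mm10 and counted reads over exons with HOMER; versions, the strand setting and the handling of multi-mapping reads were not stated in the sources used. The deposited tables held raw counts for inbred Kupffer cells, LSECs, stellate cells and hepatocytes. For BMDMs and CB6F1/J cells the tables deposited by the authors were made by the same mapping and counting, came in steps of 0.5 whose origin was not stated, and were treated as estimated counts and rounded to whole numbers before testing. TPM were used for levels as deposited by the authors and summed to 501281 to 595601 per inbred library over the listed genes. For CB6F1/J, the authors had mapped reads to both parental genomes and selected variant-spanning reads with MMARGE; total responses were fitted on the mean of the perfectly matching reads of both genomes, and shares used libraries with at least 10 variant reads.

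Among the inbred libraries 0 pairs were identical, and 0 sample columns were left unused. Counts were fitted with edgeR 4.0.16 (robust quasi-likelihood, TMM, limma 3.58.1, R 4.3.3) after its filter on low counts and where 1 or more of the groups compared averaged over 8 TPM. A call required an adjusted p below 0.05 by Benjamini-Hochberg and a log2 fold change beyond 1 in either direction. Each family of comparisons was fitted on its own groups. Levels, shares and plots were made with Python 3.11.15, pandas 2.3.3, numpy 2.4.6, scipy 1.17.1 and matplotlib 3.10.9. The fits were tested on simulated data. Alternatives are given in the closing section; among them, leaving out a library where a lone one remains assumes that it varies like the other groups. Library totals in place of TMM were added after seeing the data. Where nothing says that libraries came from separate animals, p-values measure only the spread between these libraries.

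The members and gene lists were chosen with earlier results of these data known. Named were all 9 members in every comparison, up to 4 called genes by size of change from each of 2 lists (35 other C-type lectin genes, 25 genes of C-type lectin signalling) per comparison, and the 3 genes most like each member over group means. Promoter windows came from RefSeq (GRCm38.p6), where 8 of 9 members matched, as did gene coordinates; strands came from GENCODE.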

Additional observations from a re-analysis of the deposited data

Results flagged for a closer look

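Of 49 groups of 4 to 10 libraries in which a member was tested for a library that stands apart (Dixon's 95% limit, which chance passes in about 1 of 20 groups), 4 passed. Clec4f was 28.4 TPM in C57BL/6J LSEC replicate 1, with 5.33 to 6.98 TPM in the other libraries. Clec4g was 3089 TPM in C57BL/6J LSEC replicate 4, with 3665 to 3715 TPM in the others. Untreated CB6F1/J Kupffer cell replicate 2 stood apart in 2 genes, Cd209f at 18.8 TPM (others 54.4 to 63.3 TPM) and Clec4g at 8.36 TPM (others 14.6 to 15.6 TPM).

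A test of the difference between effects was passed by 7 member values, all from edgeR. For the AMLN diet these were Cd207 in A/J over BALB/cJ (3.24) and in BALB/cJ over C57BL/6J (−1.61), and Clec4g in BALB/cJ over C57BL/6J (4.66). For the strain difference in Kupffer cells over that in BMDMs they were Cd207 in A/J over BALB/cJ (−5.06) and in BALB/cJ over C57BL/6J (3.52), Clec4d in A/J over BALB/cJ (−2.14) and Clec4e in A/J over C57BL/6J (−5.05).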

How the results depend on the processing

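Of 79 member calls, 54 held under every alternative run and 25 were lost in 1 or more; over 3015 alternative values of members, 2899 kept direction and side of the threshold, 64 lost a call, 49 gained one and 3 reversed. The reversed values were Clec4f and Clec4g after LPS in CB6F1/J with library totals (−0.46 and −0.30, against 0.38 and 0.54) and Clec4d for BALB/cJ over C57BL/6J in untreated Kupffer cells, whose leave-one-out values ran from −0.012 (without BALB/cJ replicate 1) to 1.37. The cause was not tested. A further 77 sign changes were of values within 2 SE of 0. With no TPM limit, 4 members in place of 1 were called between strains in BMDMs. Over all genes, the calls there rose as well. They were 1167 in place of 349 for A/J over BALB/cJ, 1363 in place of 464 for A/J over C57BL/6J and 1163 in place of 373 for BALB/cJ over C57BL/6J. With perfect reads, the 2 allelic calls that could be rerun, Cd207 untreated and after LPS, were both lost (−0.43 and −0.46); the 1 call left in place of 3 is the NSG one, still on variant reads, as no perfect-read table for NSG hosts was used. With DESeq2, 1 parental minus allelic difference was called in place of 0. Leaving out each library gave 3 to 5 calls between strains in Kupffer cells (5 with all), 0 to 3 in BMDMs (1), 11 to 14 for LPS (12), 6 to 8 for the diet (8), 5 to 7 for NSG hosts (6), 5 to 9 for differences between effects (7) and 0 to 1 for parental minus allelic differences (0); it was not run for the allelic BMDM fits, which would have no residual degrees of freedom.

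Deviations of samples with the same replicate number correlated at −0.40 to 0.58, highest between A/J and BALB/cJ LSEC replicate 1; between no 2 groups with 3 or more shared numbers did every correlation pass 0.1, so the numbers were not taken as pairing. With a replicate block, 9 of 257 member values changed call. It took away Cd209f for BALB/cJ over C57BL/6J in untreated Kupffer cells (2.35, adjusted p = 0.063) and Cd207 and Clec4d on the diet in BALB/cJ (−1.12 and −1.48, adjusted p = 0.066 and 0.089), and it added Clec4d for A/J over C57BL/6J in untreated Kupffer cells (−1.38), Cd209f on the diet in BALB/cJ (−2.16) and its diet difference in A/J over BALB/cJ (−4.28) and BALB/cJ over C57BL/6J (3.04), and Cd209f in BALB/cJ NSG cells (−1.82) and its NSG difference (−1.70, adjusted p = 0.046). It gave 5 calls between strains in Kupffer cells, 12 for LPS, 7 for the diet, 7 for NSG hosts and 10 for differences between effects.

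Over all genes, leaving out the TPM limit moved the number called by more than 1.5 times in 29 comparisons, from 53 to 19 for the LPS difference between strains up to 277 to 1038 for the diet in A/J. DESeq2 called 199 in place of 53 for that LPS difference, 46 in place of 21, 280 in place of 121 and 952 in place of 553 for the diet differences, 164 in place of 108 for the NSG difference, and 44 in place of 28 and 3 in place of 0 for the allelic responses to LPS and KLA. Perfect reads gave 26 in place of 137, 26 in place of 136, 12 in place of 117 and 12 in place of 110 allelic calls in untreated, LPS, PBS and KLA cells. The fit over all Kupffer cells gave 163 in place of 262 for A/J over BALB/cJ, the block 59 in place of 121 for the diet in A/J over C57BL/6J and 1 in place of 0 for the allelic KLA response, and library totals 80 in place of 53 for the LPS difference. Leaving out single libraries moved the number by more than 1.5 times in 33 fits, each of 1 comparison without 1 library. These fits fell on a few comparisons. They were the LPS difference between strains, the diet effects and their differences between strains, and the parental minus allelic difference after LPS. The LPS difference between strains moved in both directions. With 2 libraries in each untreated and LPS Kupffer cell group of the inbred strains, changes under 2-fold and receptors at a few TPM stay uncertain.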
